A study of Triticum aestivum with 8 samples.

Results

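Endosperm of the wheat cultivar AiKang58 (AK58) was compared between 5 and 9 days after fertilization (DAP5 and DAP9) by RNA-seq, with 2 samples per stage. Per the paper's methods, it was obtained by taking the embryo out of the seed, and removal of the pericarp is not stated. These 4 samples are part of 8 grain samples, and the other 4 are whole seed at DAP15 and DAP20. All plants were grown in a cycle of light and dark, and the labels name no treatment that separates the 2 stages. Expression was given as TPM, a measure corrected for gene length in which every library has the same total of 1000000. Only the beginning of each table was used, without the unfinished row at its end. The rows compared were the complete rows present in all 4 tables, which numbered 190 of the 194 rows in any of the 4 and of the 289 rows in any of the 8 tables. The tested rows were the 78 that reached 1 TPM in 2 or more of the 4 samples. At that limit, ENSRNA050013878 was just inside, with a second-highest value of 1.06 TPM, and TraesCS1A02G000300 was just outside, with 0.995 TPM.

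The endosperm is the storage tissue of the cereal grain. In the first days after fertilization it goes through nuclear division and cellularization, and its cells then differentiate and begin to fill with starch and storage protein. The main storage proteins of wheat are the gluten proteins, which are made of glutenins and gliadins. Gliadins are monomeric prolamins that give dough its extensibility. The gamma-gliadins carry disulphide bonds within the molecule, and most omega-gliadins have no cysteine. Genes of both kinds lie at the end of the short arm of the group 1 chromosomes, next to genes of low molecular weight glutenin subunits (LMW-GS). The TraesCS identifiers of the tables place all their genes on chromosome 1A. The tables also hold identifiers that begin with ENSRNA, a form that Ensembl uses for non-coding RNA genes. The tables do not state their kind, and the library kit named in the labels is one for stranded mRNA.

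The 190 rows fell into 3 kinds by identifier and by place in the table. The first 126 rows of the comparison formed a run in which ENSRNA rows were mixed with 17 TraesCS genes. Outside this run were 63 TraesCS genes and 1 more ENSRNA row. Of the 110 ENSRNA rows, 49 were tested, against 4 of the 17 genes inside the run and 25 of the 63 genes outside it. Of the 112 rows that were not tested, 69 were listed at 0 in all 4 samples. The other 43 had values up to 12.2 TPM in DAP5 replicate 1 and below 1 TPM in each of the other 3 samples.

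The DAP5 replicates stood apart from each other, and each result is therefore given against both. Of the 78 tested rows, 60 differed by more than 2-fold in TPM + 1 between the DAP5 replicates, and all 60 were higher in replicate 1. Between the DAP9 replicates 2 rows did so. Over the 190 rows, DAP5 replicates 1 and 2 held 0.429% and 0.0840% of the TPM of their libraries, and DAP9 replicates 1 and 2 held 2.36% and 2.77%. The depth is unknown, because TPM holds no counts of reads. The labels do not say whether the replicates came from separate plants, and the p-values below measure only the spread between these samples. Storage protein transcripts, which mark the starchy endosperm, were present in all 4 samples. Markers of the embryo, the pericarp or other maternal tissue were not analysed here. In such bulk samples, fewer cells of a type and less RNA per cell cannot be told apart.

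The differences between the stages took 3 forms. Gliadin genes and a few genes next to them in the table were higher in both DAP9 samples than in both DAP5 samples, by 2.02-fold to 215-fold in TPM, depending on the gene and on the DAP5 replicate. Most other genes outside the run were lower at DAP9 against either DAP5 replicate. Rows of the run were lower at DAP9 than in DAP5 replicate 1 and close to DAP5 replicate 2. These directions are for TPM as deposited. Its median log2 fold change over the 78 rows was -0.96, and rescaling by 2 sets of size factors or by quantile normalization moved that median to -0.038, -0.021 and -0.063. Each rescaling was computed from rows of this same comparison. The shift towards 0 therefore follows largely from the method and is not separate evidence. All 78 rows entered a single limma fit on log2(TPM + 1), with p adjusted by Benjamini-Hochberg, and calls needed an adjusted p under 0.01 and a log2 fold change of more than 1 in size. By this test 0 rows were called, which is 0.0% of the 78. The lowest adjusted p from limma was 0.276, and 13 rows (16.7%) had an unadjusted p under 0.05. All 13 were genes outside the run, 6 of them higher and 7 lower at DAP9. With 2 samples against 2, a two-sided exact permutation test cannot give a p below 0.333 for a single gene, so none was run.

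The calls depended on which DAP5 sample was used. Without DAP5 replicate 1, limma called 8 rows higher (10.3%) and 10 rows lower (12.8%) at DAP9, and all 18 were genes outside the run. Without DAP5 replicate 2, it called 7 rows higher (8.97%) and 60 rows lower (76.9%), and the 60 included 47 of the 49 ENSRNA rows, 4 of the 4 tested genes of the run and 9 genes outside it. These fits take their spread from the DAP9 replicates and assume that the single DAP5 sample varies as they do. In 60 of the 78 rows, however, the DAP5 replicates lay more than 2-fold apart in TPM + 1.

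**Figure D1:**
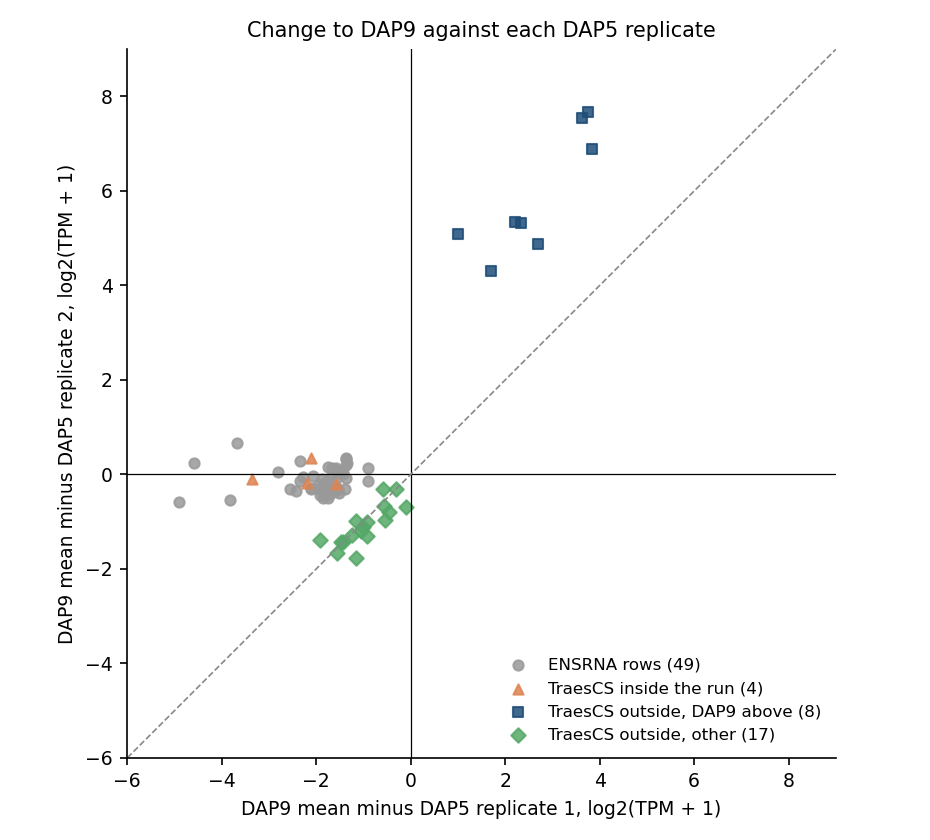
Difference between the DAP9 mean and DAP5 replicate 1 (horizontal axis) and between the DAP9 mean and DAP5 replicate 2 (vertical axis), both in log2(TPM + 1) as deposited, for the 78 tested rows. Each point is 1 row, and the dashed line marks equal differences. The 8 genes at the upper right were above both DAP5 replicates, 17 genes lie near the dashed line below 0, and the rows of the run spread along the horizontal axis near 0 on the vertical axis.

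Among the 190 rows compared, a gamma-gliadin gene, TraesCS1A02G007400, had the highest TPM in each of the 4 samples. TraesCS1A02G007600, which was not in all 4 tables, stood higher in DAP5 replicate 2, at 121.8 TPM. The study lists 16 gamma-gliadin genes, of which 3 were in all 4 tables, and all 3 were tested. TraesCS1A02G007400 had 1369 and 90.04 TPM in DAP5 replicates 1 and 2, and 15570 and 18385 TPM in DAP9 replicates 1 and 2. TraesCS1A02G007405 had 367 and 23.3 TPM at DAP5, and 4472 and 5544 TPM at DAP9. TraesCS1A02G007300 had 38.1 and 5.41 TPM at DAP5, and 112 and 140.4 TPM at DAP9. In each of these genes both DAP9 samples were above both DAP5 samples, and DAP5 replicate 1 lay above replicate 2. Both DAP9 samples were above both DAP5 samples in 8 of all 78 rows (10.3%), and these 3 genes are among the 8.

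The size of the difference depended on the DAP5 replicate. Against replicate 1 the mean TPM at DAP9 was 12.4-fold higher for TraesCS1A02G007400, 13.6-fold higher for TraesCS1A02G007405 and 3.31-fold higher for TraesCS1A02G007300. Against replicate 2 it was 189-fold, 215-fold and 23.3-fold higher. On the log2(TPM + 1) scale, TraesCS1A02G007400 had a fitted difference from DAP5 to DAP9 of 5.58 with a 95% interval from -2.75 to 13.91 (standard error 2.996, limma adjusted p = 0.386). That of TraesCS1A02G007405 was 5.72 (standard error 1.86, adjusted p = 0.276 from limma). TraesCS1A02G007300 had 2.997 (standard error 1.01, adjusted p = 0.276 from limma). The smallest of the 3 differences was thus in the least abundant gene.

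Together the 3 gamma-gliadin genes held 0.177% and 0.0119% of the TPM of DAP5 replicates 1 and 2, and 2.02% and 2.41% of that of the DAP9 replicates. At DAP5 the mean share was 0.0946% ± 0.117 (SD, n = 2). The DAP9 samples had a mean of 2.21% ± 0.277 (SD, n = 2). The makeup of this sum varied far less than its size. TraesCS1A02G007400 made up between 75.8% and 77.3% of it in the 4 samples. TraesCS1A02G007405 made up 20.7% and 19.6% at DAP5 and 22.2% and 23.0% at DAP9. TraesCS1A02G007300 made up 2.15% and 4.55% at DAP5 and 0.556% and 0.583% at DAP9, so that its DAP9 shares were below both DAP5 shares. How reads shared between near-identical copies were assigned is not given in the sources used here, and values of single gliadin genes are uncertain to that extent.

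The only omega-gliadin gene in all 4 tables, of 14 listed, followed the same order of samples. TraesCS1A02G005387 had 52.1 and 5.07 TPM at DAP5, and 225 and 267 TPM at DAP9. Its DAP9 mean was 4.73-fold above DAP5 replicate 1 and 48.6-fold above replicate 2. The fitted change was 3.78 on the log2(TPM + 1) scale (standard error 1.20, adjusted p = 0.276 from limma). None of the 17 LMW-GS, 4 HMW-GS (high molecular weight glutenin subunit), 35 alpha-gliadin, 45 starch pathway or 27 transcription factor genes of the study's lists was in all 4 tables (0 of each), so these groups were not analysed here.

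The other 4 genes with both DAP9 samples above both DAP5 samples are not in the study's lists of storage protein genes, and the tables give no name for them. TraesCS1A02G007200 had 107 and 12.1 TPM at DAP5, and 1618 and 1471 TPM at DAP9. Its DAP9 mean was 14.4-fold above DAP5 replicate 1 and 128-fold above replicate 2. TraesCS1A02G007344 had 493 and 28.01 TPM at DAP5, and 839 and 1153 TPM at DAP9. This gene had the widest gap between the DAP5 replicates among the 8, 17.6-fold, and the smallest difference between DAP5 replicate 1 and DAP9, 2.02-fold. TraesCS1A02G005368 had 47.6 and 5.05 TPM at DAP5, and 216 and 273 TPM at DAP9. TraesCS1A02G005315 had 6.83 and 0.717 TPM at DAP5, and 52.4 and 46.7 TPM at DAP9. TraesCS1A02G005368 and TraesCS1A02G005315 are named after their values were seen. The fitted changes of the 4 genes were between 3.04 and 5.36 on the log2(TPM + 1) scale, with adjusted p values from limma of 0.276 for TraesCS1A02G007200, TraesCS1A02G005368 and TraesCS1A02G005315 and of 0.386 for TraesCS1A02G007344.

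**Figure D2:**
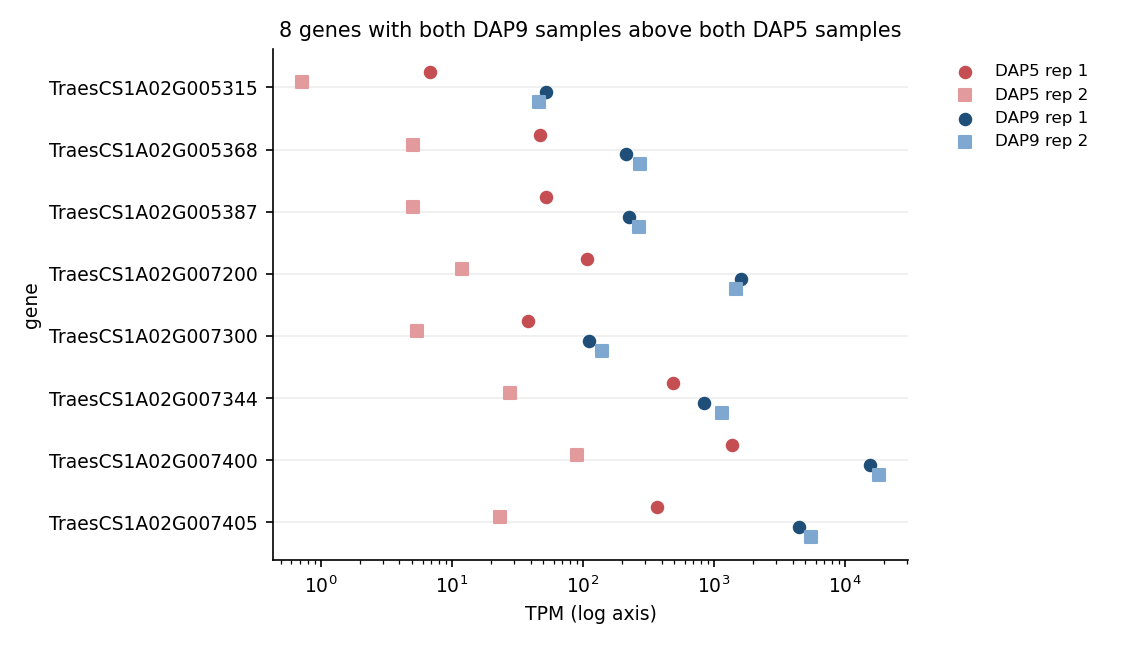
TPM (log axis) of the 8 genes with both DAP9 samples above both DAP5 samples. Each point is 1 sample, circles are replicate 1 and squares replicate 2. In all 8 genes DAP5 replicate 2 is lowest, DAP5 replicate 1 lies between 7.05-fold and 17.6-fold above it, and the DAP9 samples lie close together at the top.

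These 8 genes lay in 2 stretches of the table. The first held 3 successive genes, TraesCS1A02G005315, TraesCS1A02G005368 and TraesCS1A02G005387, and all 3 were higher at DAP9. The second held 6 rows from TraesCS1A02G007200 to TraesCS1A02G007405, of which 5 were tested and all 5 were higher at DAP9. The ends of both stretches were set after the values were seen, at genes that were higher at DAP9. The other 17 tested genes outside the run lay before the first stretch or between the stretches. The study placed 3 of the 8 genes (those of the first stretch) in its group of genes specific to DAP15. It chose that group on samples that include these. Its list of genes specific to DAP15 and DAP20 together was available here only in part, so whether the other genes are in it is not known. The 8 log2 fold changes stayed positive with 2 sets of size factors, but quantile normalization reduced several of them. It took TraesCS1A02G007344 from 3.04 to 0.10, TraesCS1A02G007405 from 5.72 to 2.84 and TraesCS1A02G007200 from 5.36 to 3.36. TraesCS1A02G007400 had 0 under it by construction, as the highest tested row of every sample.

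Ratios between genes within 1 library do not depend on how libraries are scaled, and TPM is per length. Relative to TraesCS1A02G007400 in the same sample, TraesCS1A02G007344 stood at 36.0% and 31.1% at DAP5 and at 5.39% and 6.27% at DAP9. The omega-gliadin gene TraesCS1A02G005387 stood at 3.80% and 5.63% at DAP5 and at 1.45% at DAP9 in both samples. TraesCS1A02G007405 stood at 26.8% and 25.9% at DAP5 and at 28.7% and 30.2% at DAP9. Both DAP9 ratios were below both DAP5 ratios for 5 of the 7 genes, TraesCS1A02G005315, TraesCS1A02G005368, TraesCS1A02G005387, TraesCS1A02G007300 and TraesCS1A02G007344. The same was true of 75 of the 77 other tested rows (97.4%), and the reference gene is itself among those with the widest difference between the stages. TraesCS1A02G007405 was above, and TraesCS1A02G007200 overlapped, at 7.83% and 13.4% at DAP5 and 10.4% and 8.00% at DAP9. The DAP5 replicates, 15.2-fold apart in TraesCS1A02G007400 itself, thus differed by much less in these ratios. With the omega-gliadin gene TraesCS1A02G005387 as the reference, TraesCS1A02G005315 stood higher in both DAP9 samples, at 13.1% and 14.1% at DAP5 and 23.2% and 17.5% at DAP9. TraesCS1A02G005368 stood at 91.4% and 99.6% at DAP5 and at 95.7% and 102% at DAP9, where the samples overlapped. TraesCS1A02G007300 and TraesCS1A02G007344 had lower ratios in both DAP9 samples against either reference. The ratios were examined after the values were seen and were not tested.

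**Figure D3:**
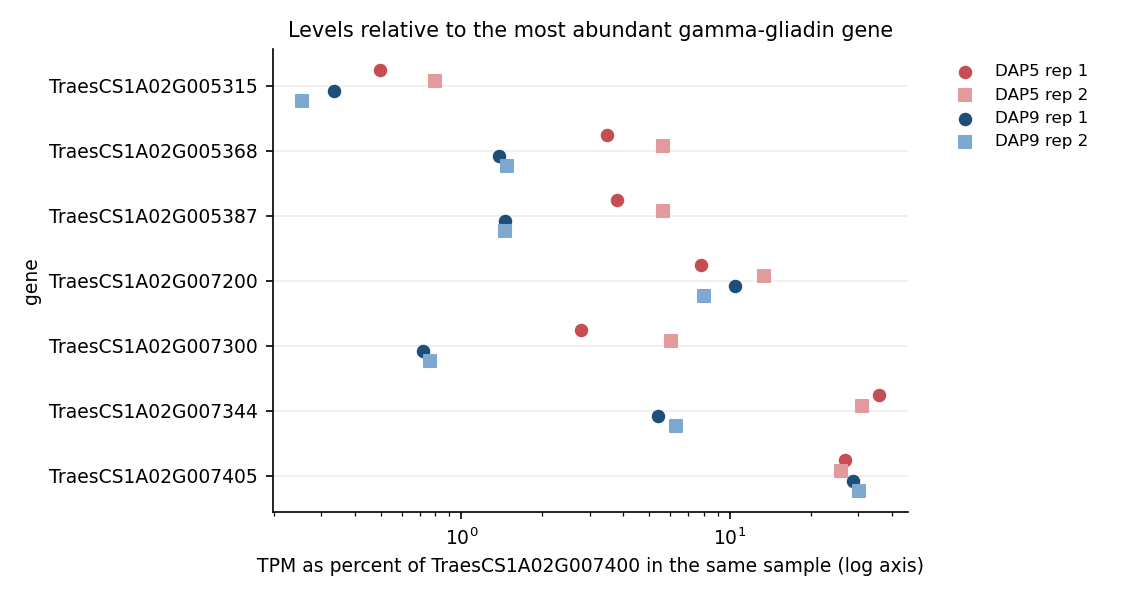
TPM of 7 genes as a percent of TraesCS1A02G007400 in the same sample (log axis), 1 point per sample. For TraesCS1A02G007344 the DAP5 samples lie at 36.0% and 31.1% and the DAP9 samples at 5.39% and 6.27%, while the 4 samples of TraesCS1A02G007405 lie between 25.9% and 30.2%.

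The remaining 17 tested genes outside the run, from TraesCS1A02G001800 to TraesCS1A02G005900, had lower TPM at DAP9. That direction held in 11 of them with either set of size factors and in 14 with quantile normalization. These rescalings were computed from rows that include the 17 genes, so these counts depend on that choice of rows. These 17 are the genes left once the 8 with both DAP9 samples higher are set aside, so counts over them are a description. Both DAP9 samples were below both DAP5 samples in 16 of the 25 tested genes outside the run, against 43 of all 78 rows (55.1%), and these 16 are among the 17. One of them, TraesCS1A02G004900, reached 1 TPM only at DAP5 and so entered the comparison through the stage where it was higher. The exception was TraesCS1A02G004400, with 8.42 and 13.3 TPM at DAP5 and 8.46 and 7.15 TPM at DAP9. The median log2 fold change of the 17 genes was -1.07, with a range from -1.65 to -0.32, and that of all tested rows was -0.96. Here the DAP5 replicates lay close together. Replicate 1 was between 0.633 and 1.46 times replicate 2, and the median change was -1.02 against replicate 1 and -1.12 against replicate 2. The 17 genes summed to 351 and 367 TPM at DAP5 and to 191 and 159.9 TPM at DAP9.

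The tables give no gene name for these genes, and the following are named after their values were seen unless stated otherwise. TraesCS1A02G002700 had 39.5 and 39.1 TPM at DAP5 and 14.7 and 13.3 TPM at DAP9. TraesCS1A02G005800, the most abundant of the 17 at DAP5, had 69.0 and 67.6 TPM at DAP5 and 26.6 and 22.1 TPM at DAP9. The DAP5 replicates of both genes nearly coincided, and the DAP5 mean was 2.81-fold and 2.80-fold above the DAP9 mean. TraesCS1A02G002100 had 9.28 and 10.2 TPM at DAP5 and 2.47 and 2.55 TPM at DAP9, and its mean was 3.88-fold higher at DAP5, the widest ratio of the 17. TraesCS1A02G002500 had 20.9 and 14.3 TPM at DAP5 and 4.26 and 5.44 TPM at DAP9. TraesCS1A02G001800, which the rule took for its gap between the DAP5 replicates, had 13.3 and 21.0 TPM at DAP5 and 6.58 and 4.47 TPM at DAP9. TraesCS1A02G004500, taken by the same rule, had 5.97 and 8.36 TPM at DAP5 and 3.66 and 3.95 TPM at DAP9. At the other end, TraesCS1A02G005500 had 7.38 and 7.32 TPM at DAP5 and 6.18 and 5.28 TPM at DAP9, the smallest difference of the 17 in fold change.

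The fitted changes of the 17 genes had standard errors between 0.38 and 0.48, in a fit that shares part of the estimated spread over all 78 rows. On the log2 scale TraesCS1A02G002700 differed by -1.43 with a standard error of 0.38, TraesCS1A02G002100 by -1.61 with one of 0.44, and TraesCS1A02G002500 by -1.65 with one of 0.45. Their adjusted p from limma was 0.276 in each case. With only the 25 genes outside the run in the fit, 6 genes were called, all lower at DAP9, and 17 had an adjusted p under 0.05 from limma. With the DAP15 and DAP20 samples added to the fit, which kept 28 of the rows, 12 genes were called, 2 higher and 10 lower at DAP9. TPM is a share of a library's total, so a lower value here means a smaller share of the transcripts counted.

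**Figure D4:**
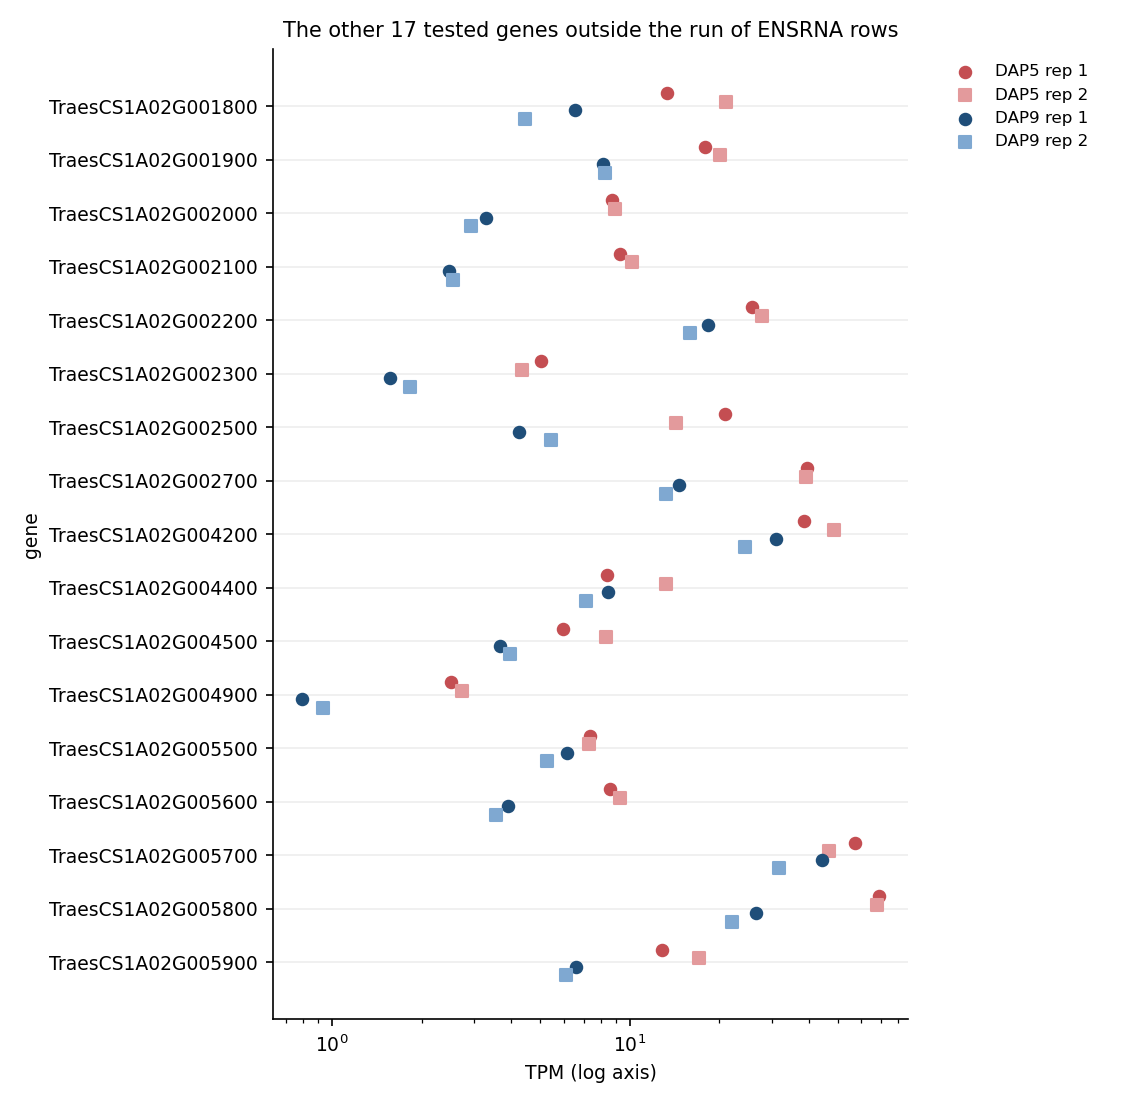
TPM (log axis) of the other 17 tested genes outside the run. Each point is 1 sample, circles are replicate 1 and squares replicate 2. The DAP9 samples lie below both DAP5 samples in every gene but TraesCS1A02G004400, and the DAP5 replicates lie within 0.633 to 1.46 times each other. Values are TPM as deposited, and with size factors 11 of the 17 genes stay lower at DAP9.

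Of these genes, at least 3 stand in groups that the study defined by stage or tissue. Its lists for leaf, for DAP5 with DAP9 and for DAP15 with DAP20 were available here only in part. TraesCS1A02G002200, in its DAP15-specific group, had 25.8 and 27.9 TPM at DAP5 and 18.3 and 15.9 TPM at DAP9. TraesCS1A02G002300, in its leaf-specific group, had 5.02 and 4.34 TPM at DAP5 and 1.57 and 1.83 TPM at DAP9. TraesCS1A02G005600, in its group specific to grain at all stages, had 8.60 and 9.31 TPM at DAP5 and 3.92 and 3.55 TPM at DAP9. In each of the 3, both DAP9 samples were below both DAP5 samples, as in 55.1% of all tested rows and in 16 of the 17 genes from which they come.

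Within the run, the ENSRNA rows were divided by their numbers. The rows from ENSRNA050013832 to ENSRNA050013889 numbered 58, of which 49 were tested and 55 were above 0 in all 4 samples. The rows from ENSRNA050013890 to ENSRNA050013940 numbered 51, of which 0 were tested and 40 were listed at 0 in all 4 samples. The highest value among these 51 was 3.79 TPM. In the order of the table the rows of both stretches of numbers were interleaved. The boundary was set after the values were seen, at the highest-numbered tested row. The count of 0 tested rows above it therefore follows from that choice.

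All 49 tested ENSRNA rows had their highest value in DAP5 replicate 1. Over all 78 tested rows 59 did so, and 53 of them were in the run. Their median was 13.9 TPM in that sample, 3.79 TPM in DAP5 replicate 2, and 3.40 and 3.36 TPM in the DAP9 replicates. The ranges were 2.44 to 173 TPM in DAP5 replicate 1, 0.681 to 47.7 TPM in replicate 2, and 0.426 to 40.6 and 0.578 to 37.5 TPM in the DAP9 replicates. Against DAP5 replicate 1 the median log2 difference at DAP9 was -1.75 on the log2(TPM + 1) scale, and against replicate 2 it was -0.14. DAP9 was within 2-fold in TPM + 1 of DAP5 replicate 2 in 49 of 49 rows and of DAP5 replicate 1 in 2 of 49. In 24 of the 49 rows both DAP9 samples were below both DAP5 samples, a share near the 55.1% of all tested rows, and in 25 the samples overlapped. Among the 24 is ENSRNA050013878, which reached 1 TPM only at DAP5 and so entered the comparison through the stage where it was higher. The fitted median was -0.98, with adjusted p values between 0.386 and 0.536 from limma.

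**Figure D5:**
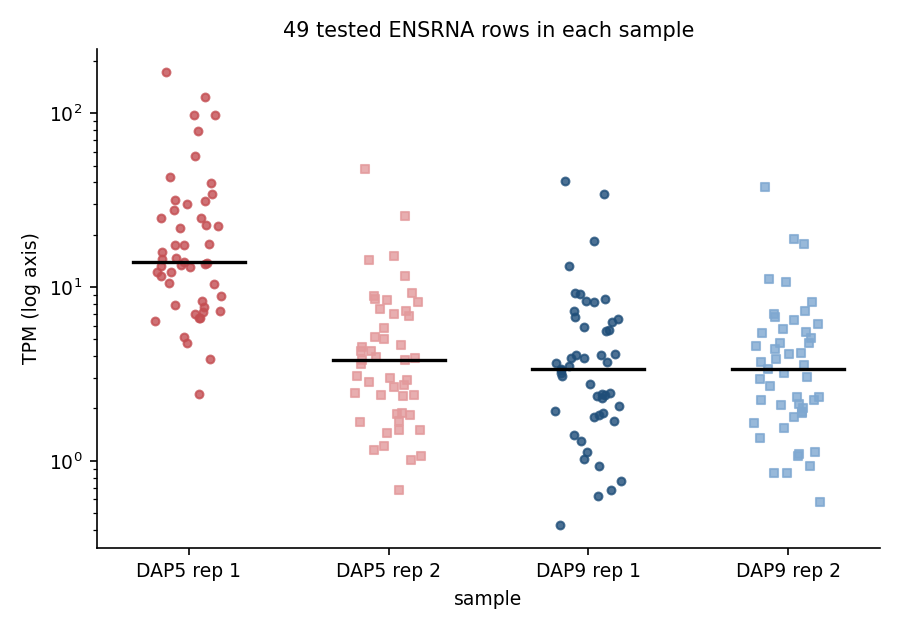
TPM (log axis) of the 49 tested ENSRNA rows in each sample. Each point is 1 row, spread sideways for visibility, and the bars are medians. The median is 13.9 TPM in DAP5 replicate 1 and between 3.36 and 3.79 TPM in the other 3 samples.

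The most abundant ENSRNA row was ENSRNA050013838, with 173 and 47.7 TPM at DAP5 and 40.6 and 37.5 TPM at DAP9. ENSRNA050013832 had 124 and 25.5 TPM at DAP5 and 34.2 and 17.7 TPM at DAP9. ENSRNA050013853 had 98.3 and 15.2 TPM at DAP5 and 18.3 and 19.0 TPM at DAP9, so that DAP9 lay above DAP5 replicate 2 and below replicate 1. A few rows had a wider gap between the DAP5 replicates. ENSRNA050013880 had 79.5 and 1.85 TPM at DAP5, a 43.0-fold gap, and 2.36 and 2.34 TPM at DAP9. ENSRNA050013881 had 39.7 and 1.016 TPM at DAP5 and 0.682 and 5.09 TPM at DAP9. ENSRNA050013879 had 97.4 and 3.93 TPM at DAP5 and 4.09 and 1.13 TPM at DAP9. The last 2 of these were also the only rows of the 78 whose DAP9 replicates differed by more than 2-fold in TPM + 1.

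The gap between the DAP5 replicates was narrowest, relative to TPM + 1, in ENSRNA050013889, ENSRNA050013840 and ENSRNA050013857. ENSRNA050013889 had 3.85 and 1.83 TPM at DAP5 and 2.47 and 0.932 TPM at DAP9. ENSRNA050013840 had 2.44 and 0.681 TPM at DAP5 and 0.629 and 1.07 TPM at DAP9. ENSRNA050013857 had 6.36 and 2.46 TPM at DAP5 and 1.93 and 1.66 TPM at DAP9. In these rows too, DAP5 replicate 1 was highest of the 4 samples. Over the 49 rows the ratio of DAP5 replicate 1 to replicate 2 had a median of 3.68 and quartiles of 2.999 and 4.73. Up to ENSRNA050013872 it was above 7 in 1 of 39 tested rows, and from ENSRNA050013873 on in 5 of 10, a boundary that was also set after the values were seen.

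The 17 TraesCS genes inside the run showed the order of the ENSRNA rows around them. DAP5 replicate 1 was the highest of the 4 samples in 17 of 17, and 4 of the genes were listed at 0 in both DAP9 samples. Over all 78 tested rows, DAP5 replicate 1 was the highest in 59. TraesCS1A02G001100 had 24.98 and 1.68 TPM at DAP5 and 1.61 and 1.43 TPM at DAP9. TraesCS1A02G000100, the gene with the lowest number in the tables, had 21.9 and 4.68 TPM at DAP5 and 4.17 and 3.80 TPM at DAP9. Both genes are named after their values were seen. Over the 4 tested genes the median log2 difference at DAP9 was -2.15 against DAP5 replicate 1 and -0.14 against replicate 2. The study placed 9 of the 17 genes in its DAP20-specific group, and 2 of these 9 were tested. All 9 had their highest endosperm value in DAP5 replicate 1, as did 17 of 17 in the run. Their values ran from 0.170 to 21.9 TPM there. In the other 3 samples they ran from 0 up to 4.68, 4.17 and 3.80 TPM.

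As a measure of how alike the samples were, Pearson correlations of log2(TPM + 1) were taken across rows, which are not replicates and share their libraries. Across the 53 tested rows of the run, DAP5 replicate 2 correlated with DAP9 replicates 1 and 2 at 0.96 and 0.91 and with DAP5 replicate 1 at 0.74. Across the 25 genes outside the run, the order was the reverse. DAP5 replicate 1 correlated with the DAP9 replicates at 0.91 in each case, DAP5 replicate 2 with them at 0.32 and 0.30, and the DAP5 replicates with each other at 0.62. By this measure DAP5 replicate 2 was the nearer of the DAP5 samples to DAP9 in the run, and DAP5 replicate 1 over the 25 genes outside it. Those 25 include the 8 genes higher at DAP9, whose median log2 difference was 2.51 against replicate 1 and 5.34 against replicate 2. In the other 17 the medians were -1.02 and -1.12. DAP9 was within 2-fold in TPM + 1 of replicate 1 in 8 of these 17 genes and of replicate 2 in 7.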

How the data were processed

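RNA-seq of endosperm at DAP5 and DAP9 was used, 2 samples per stage. Per the paper's methods, reads were trimmed with fastp, aligned with hisat2 and turned into TPM by TPMCalculator. The submitters' processing notes name Trimmomatic, HISAT2 2.0.5 and StringTie 1.3.3b instead. Which of these tools made the TPM values that the authors deposited is not given in the sources used here. The genome build, the annotation and any use of strand are not given in the sources used here. Each table was used from its start up to its last complete row, not in full. TPM keeps no depth, so no counting error is given. Of 289 identifiers, 0 matched the reference gene table, so no positions or sequences are printed.

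R 4.3.3 with limma 3.58.1 fitted log2(TPM + 1) of the 4 samples by stage, with a trend in eBayes, and p was adjusted by Benjamini-Hochberg over the 78 rows, with the study's thresholds. DESeq2, which the authors used, needs counts. The fit was first run on simulated data with the same small spread in every sample. Those data had no gap like that between the DAP5 replicates, so they do not show how the fit behaves with it. Python 3.11.15 with numpy 2.4.6, pandas 2.3.3 and matplotlib 3.10.9 did the rest.

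Rows were named by a rule: listed storage protein genes, the largest changes among called rows (0 rows), the 5 most abundant rows of each kind of identifier, the 3 rows of each kind with the largest and the 3 with the smallest ratio of DAP5 replicate 1 to replicate 2, listed stage-group genes by count and range, and the rows at the filter's limit. The rule gave 19 tested rows, and 13 more tested rows were named after their values were seen. Members and lists were chosen with earlier results of these data known. Alternatives were pseudocounts of 0.1 and 5, no filter or a filter at a TPM of 5, 2 sets of size factors, quantile normalization, a replicate block, other stages or fewer rows in the fit, no trend, an adjusted p under 0.05, and each sample left out.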

Additional observations from a re-analysis of the deposited data

How the results depend on the processing

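The count of 0 called rows was the same in both directions with pseudocounts of 0.1 and 5, no filter and a filter at a TPM of 5. It also held with both sets of size factors, quantile normalization, DAP20 added to the fit, TraesCS rows only and no trend. In the main fit it held at an adjusted p under 0.05 too. Rows with a limma adjusted p under 0.05 numbered 6 with size factors from all rows, 2 with quantile normalization and 13 with TraesCS rows only. The count of called rows changed with other choices of samples and rows in the fit. With all 4 stages, 2 rows were called higher and 10 lower at DAP9. With the genes outside the run only, an alternative chosen after seeing the data, 0 were called higher and 6 lower. Leaving out 1 sample gave between 0 and 8 rows called higher and between 0 and 60 called lower. Without DAP5 replicate 1 these were 8 (10.3%) and 10 (12.8%), and without DAP5 replicate 2 they were 7 (8.97%) and 60 (76.9%). Of these calls 7 higher and 8 lower were shared. Such a fit takes its spread from the DAP9 replicates alone and assumes that the lone DAP5 sample varies as they do. The DAP5 replicates differed by more than 2-fold in TPM + 1 in 60 of the 78 rows, against 2 rows for the DAP9 replicates. In the 17 genes outside the run that were not higher at DAP9, 0 differed so at DAP5. With a lone DAP5 sample, all these calls are descriptions.

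The median log2 fold change of all tested rows moved from -0.96 to -0.038 with size factors from all rows, to -0.021 with size factors from genes outside the run and to -0.063 with quantile normalization. For ENSRNA rows these were -0.039, -0.021 and -0.025. Each rescaling was computed from rows of this same comparison, so shifts of the medians follow largely from the choice of rows. For genes outside the run the median moved from -0.63 to 0.41, 0.50 and -0.19, and to 0 with no filter. Between samples left out, it ran from -0.80 to -0.53. That of all rows ran from -1.58 to -0.21, of ENSRNA rows from -1.75 to -0.14, and of genes inside the run from -2.15 to -0.14. The gamma-gliadin share at DAP9 was 3.34% with size factors from all rows and 3.30% with those from genes outside the run. Leaving out 1 replicate gave 0.0119% to 0.177% at DAP5 and 2.02% to 2.41% at DAP9.

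Log2 fold changes reversed as follows. With size factors from all rows they were 0.53 for TraesCS1A02G004400, 0.11 for TraesCS1A02G004500, 0.41 for TraesCS1A02G002200, 0.60 for TraesCS1A02G005500, 0.042 for ENSRNA050013853, 0.21 for ENSRNA050013889 and 0.24 for ENSRNA050013840. With size factors from genes outside the run, they were 0.65, 0.23, 0.50, 0.70, 0.091, 0.24 and 0.19 in the same order. With quantile normalization TraesCS1A02G004400 had 0.54, TraesCS1A02G004500 0.23, TraesCS1A02G005500 0.66, ENSRNA050013889 0.23, ENSRNA050013840 0.33 and ENSRNA050013857 0.048. Over the samples left out, ENSRNA050013853 ran from -2.34 to 0.28, ENSRNA050013880 from -4.59 to 0.23, ENSRNA050013881 from -3.67 to 0.67 and ENSRNA050013840 from -0.91 to 0.13, with the highest value without DAP5 replicate 1 and the lowest without DAP5 replicate 2. Apart from the scaling itself, the cause of these changes was not tested.

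The replicate numbers come with no statement of a shared batch and were not treated as pairs. The deviations of same-numbered samples from their stage means correlated at -0.26 across rows. With a replicate block 0 rows were called higher and 0 lower, 4 rows had an adjusted p under 0.05 from limma, and the median log2 fold change stayed at -0.96.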

Other observations

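A few rows of the endosperm tables stood in some of the 4 tables and in no comparison above. TraesCS1A02G007500 had 60.3 TPM in DAP5 replicate 2, and 30.1 and 26.4 TPM in DAP9 replicates 1 and 2. TraesCS1A02G007600 had 121.8 TPM in DAP5 replicate 2, and 54.1 and 42.9 TPM in the DAP9 replicates. These genes follow TraesCS1A02G007405 by identifier, and in both the DAP9 values were below that of DAP5 replicate 2. The gamma-gliadin gene TraesCS1A02G007700 had 14093 TPM in DAP9 replicate 1, next to 15570 TPM of TraesCS1A02G007400 in that sample. TraesCS1A02G007800 was listed at 0 in DAP9 replicate 1.

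The following were chosen after their values were seen. Among the genes outside the run that were under the filter, TraesCS1A02G005100 had 1.01 and 0.864 TPM in DAP5 replicates 1 and 2, and 0.0760 and 0.154 TPM at DAP9. The highest value of a row that was not tested was the 12.2 TPM of TraesCS1A02G000400 in DAP5 replicate 1, against 0.681 TPM in replicate 2 and 0.387 and 0.480 TPM at DAP9. Of the 43 rows that were not tested and not at 0 throughout, 33 had their highest value in DAP5 replicate 1, 6 in DAP5 replicate 2 and 4 in a DAP9 sample, and 10 were above 0 in DAP5 replicate 1 only.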
